A study of Mus musculus with 4 samples.

Results

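This is an account of 9 neural genes in mouse E14 embryonic stem cells: Neurod1, Nkx2-9, Vgf, Sox1, Pax6, Nes, Sox3, Zic2 and Otx2. They were taken by symbol from the 35976 gene rows of the deposited count table, and all 9 were found. The members were chosen by their place among neuroectoderm and neurogenic genes and with the knockdown against control differences of these same libraries in view. The differences between groups given for them are therefore a description and carry no test. The genotype label was wild type for the controls and knocked down for the other group, and the strain label was 12910la for both. The cells grew on gelatin in serum with LIF, a cytokine that holds mouse embryonic stem cells undifferentiated. Lx8-SINE B2 is an RNA whose name includes SINE B2, a family of short interspersed repeats. It was knocked down by a short hairpin RNA from the pSuper puro vector, and transfected cells were selected with puromycin for 3 days. There were 2 control and 2 knockdown libraries, and what vector the controls received is not given in the sources used here.

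Library totals ran from 16383323 to 19867689 counts. Whether replicate libraries are separate cultures is not stated in the labels, and the spread between the 2 may be technical. Only the knockdown titles carry a batch word, so effects of batch and of knockdown cannot be told apart. The cells carried the markers of their label: all 10 embryonic stem cell markers examined were measured, with a summed level of 7497 to 7819 CPM (counts scaled to library size, with TMM factors) in the controls and 5590 to 6009 CPM in the knockdown libraries. The difference was uneven. Log2 fold changes were -1.19 for Tdgf1, -0.77 for Dppa5a, -0.71 for Lin28a and -0.47 for Utf1. Those of Pou5f1, Sox2, Nanog, Klf4, Esrrb and Zfp42 lay between -0.27 and 0.13. Apart from Tdgf1, they are named after their values were seen. In bulk RNA, a change in the number of cells of a type and a change in RNA per cell cannot be told apart.

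Embryonic stem cells that leave self-renewal can pass through an epiblast-like state and take a neural fate. Early neuroectoderm is marked by SOX1, PAX6 and nestin, with SOX3, ZIC2 and OTX2 already present in the epiblast. Proneural and neurogenic transcription factors of the basic helix-loop-helix class, of which NEUROD1 is one, then drive progenitors to become neurons. They pair with E proteins on a DNA motif called the E-box, and ID proteins hold that pairing back. Sequence before the start of Neurod1 is shown because, of the 3 members that differed most, it alone had a stretch free of transcribed bases in the RefSeq promoter table. Of the 9 genes, 6 had an entry there (GRCm38.p6, the same build as mm10). The stretch is chr2:79456786-79456886, printed 5′ to 3′ on the minus strand, with the match to the E-box letters CANNTG in capitals. It is the part of the 250 bases before the RefSeq start site that no GENCODE M21 exon covers.

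Neurod1: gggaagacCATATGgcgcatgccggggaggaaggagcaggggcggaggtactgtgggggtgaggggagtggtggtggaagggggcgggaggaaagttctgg

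The stretch held 1 E-box match and had a GC content of 66.3%. Of all 32851 windows of 250 bases in the table, 66.2% held at least 1 E-box match. The window of Nkx2-9 lies inside the span that RefSeq gives the gene, which ends at 56613569, so it may be transcribed and is not printed. It held 1 E-box match too. In the full 250 bases each gene had 4 matches to the GC box letters GGGCGG on either strand, a motif found in 32.7% of all windows. Neither window held a match to TGACGTCA, the cyclic AMP response element, which 1.55% of all windows held. Among the 10 windows of the 6 genes with an entry, it was found in 1, the more upstream of the 2 Pax6 promoters, starting 76 bases before the start site. Vgf, Sox3 and Zic2 had no entry and were not searched for any of these motifs. These matches are descriptions of letters and not of binding.

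Neurod1, Nkx2-9 and Vgf stood far above their control levels in both knockdown libraries. Neurod1 encodes the neurogenic factor NEUROD1 and lies on chromosome 2 from 79452521 to 79456751 (mm10). It had 56 and 50 counts in the controls, or 2.96 and 2.59 CPM, and 215 and 202 counts in the knockdown libraries, or 11.2 and 12.3 CPM. The groups did not overlap, and libraries of a group lay close together. The mean was 4.24-fold higher, at 11.8 ± 0.73 against 2.78 ± 0.26 CPM (SD, n = 2 each). The log2 fold change was 2.08 ± 0.34 (SE).

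Nkx2-9 encodes a homeodomain factor of the ventral neural tube that responds to Sonic hedgehog, and lies on chromosome 12 from 56611389 to 56613284. Its counts were 39 and 21 in the controls (2.06 and 1.09 CPM) and 251 and 179 in the knockdown libraries (13.1 and 10.9 CPM). Both knockdown libraries were well above both controls, although the controls differed from each other by 1.89-fold, with a 95% exact interval for counting error of 1.09 to 3.38. The mean was 7.62-fold higher in the knockdown libraries, a log2 fold change of 2.93 ± 0.43 (SE). Vgf, on chromosome 5 from 137026392 to 137033351, encodes a secreted precursor of neuropeptides that neurotrophins induce. Its control counts were 31 and 22 (1.64 and 1.14 CPM) and its knockdown counts 197 and 190 (10.3 and 11.6 CPM). The groups were again apart, by 7.87-fold in the mean and by a log2 fold change of 2.97 ± 0.40 (SE).

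None of the 9 genes was too low to judge. All passed the filter on low counts, none had a mean under 1 CPM, and in none did the 95% exact interval of the ratio of summed counts hold both 0.5 and 2. That interval, which covers counting error only, was 3.41 to 5.28 for Neurod1, 5.87 to 10.3 for Nkx2-9 and 5.88 to 10.7 for Vgf. Each of these genes rested on fewer than 60 counts in a control library, so counting error weighs more on their fold changes than on those of the more abundant members. Their standard errors, 0.34, 0.43 and 0.40 in log2 units, were not the largest. Pax6, with 120 and 129 control counts, had 0.59. The rule for too low to judge weighs depth only, and few genes that pass the filter could fail it. Pax6 passed although its knockdown libraries were at 15.2 and 3.59 CPM.

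**Figure D1:**
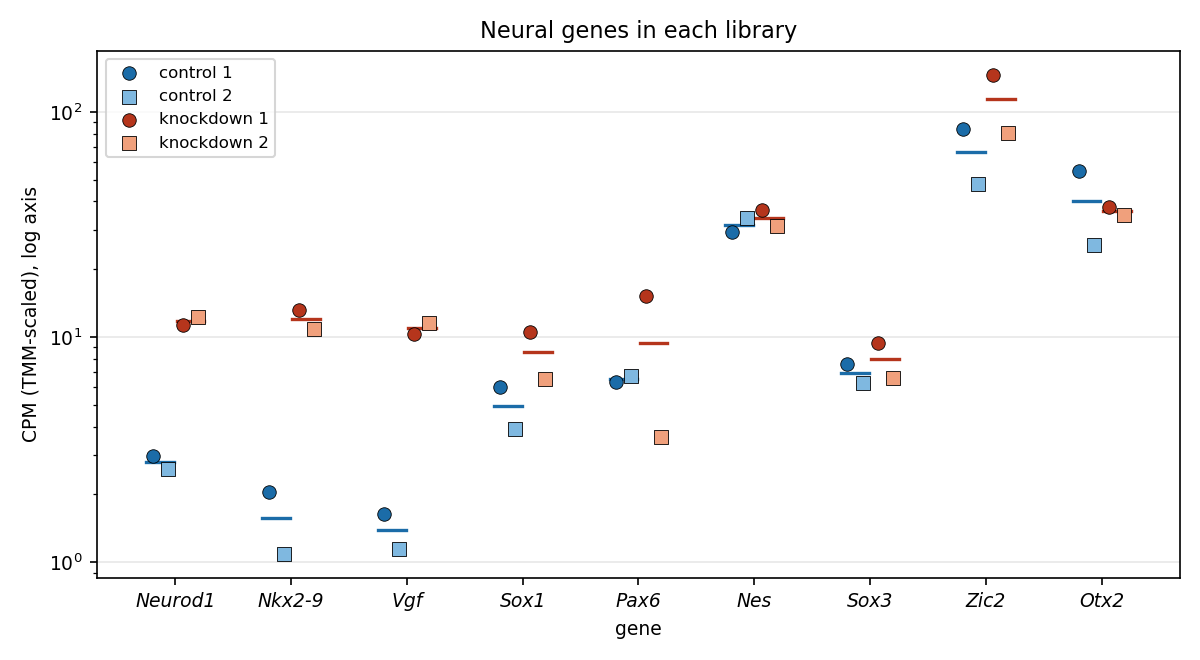
TMM-scaled CPM (log axis) of the 9 neural genes in each library, with short bars at the mean of each group of 2 libraries. Neurod1, Nkx2-9 and Vgf are at 1.09 to 2.96 CPM in the controls and 10.3 to 13.1 CPM in the knockdown libraries, while Pax6 spans 3.59 to 15.2 CPM within the knockdown group.

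The SOXB1 genes of the neural lineage differed between groups by less than 2 standard errors. Sox1, on chromosome 8 from 12395295 to 12400126, encodes the earliest factor specific to neuroectoderm. It was at 6.02 and 3.89 CPM in the controls and at 10.6 and 6.51 CPM in the knockdown libraries. The knockdown libraries were above both controls, but the lower of them exceeded the higher control only slightly. The log2 fold change was 0.79 ± 0.41 (SE), and it was 0.39 without knockdown replicate 1 and 1.13 without control replicate 1. Sox3, an X-linked relative on chromosome X from 60891366 to 60893430 that is also present in the epiblast, was at 7.61 and 6.23 CPM in the controls and at 9.42 and 6.57 CPM in the knockdown libraries. The groups overlapped, and the log2 fold change of 0.21 was smaller than its standard error of 0.35 and turned to -0.08 without knockdown replicate 1.

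Pax6 differed more between the knockdown libraries than between the groups. It encodes a paired-box factor of the eye, forebrain and neural progenitors and lies on chromosome 2 from 105668900 to 105697364. The controls were alike at 6.34 and 6.69 CPM (120 and 129 counts), whereas the knockdown libraries held 15.2 and 3.59 CPM (291 and 59 counts), one above and one below both controls. Knockdown replicate 1 was 4.24-fold above replicate 2, with a 95% exact interval for counting error of 3.20 to 5.71, and only 0.734% of tested genes had a larger gap between these libraries. The log2 fold change of 0.53 ± 0.59 (SE) therefore averages opposite values: it was -0.86 without knockdown replicate 1 and 1.22 without knockdown replicate 2.

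Nes encodes nestin, the intermediate filament of neural progenitors, and lies on chromosome 3 from 87971078 to 87980451. It was at 29.4 and 33.8 CPM in the controls and at 36.7 and 31.1 CPM in the knockdown libraries, which overlapped. Its log2 fold change of 0.10 had a standard error of 0.21 and was -0.03 without knockdown replicate 1. Zic2, a zinc finger factor gene of epiblast and dorsal neural tube on chromosome 14 from 122475435 to 122479852, was the most abundant of the 9. It had 84.1 and 47.9 CPM in the controls and 146 and 80.9 CPM in the knockdown libraries. Knockdown replicate 2 fell between the controls, so the groups overlapped. The log2 fold change was 0.78 ± 0.34 (SE), falling to 0.29 without knockdown replicate 1 and reaching 1.24 without control replicate 1. Otx2, on chromosome 14 from 48657677 to 48673819, encodes a homeodomain factor of epiblast, forebrain and midbrain. The controls, at 54.6 and 25.6 CPM, enclosed both knockdown libraries, at 37.8 and 34.8 CPM. Its log2 fold change of -0.14 had a standard error of 0.33 and depended on the control kept, at 0.50 without control replicate 1 and -0.64 without control replicate 2.

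**Figure D2:**
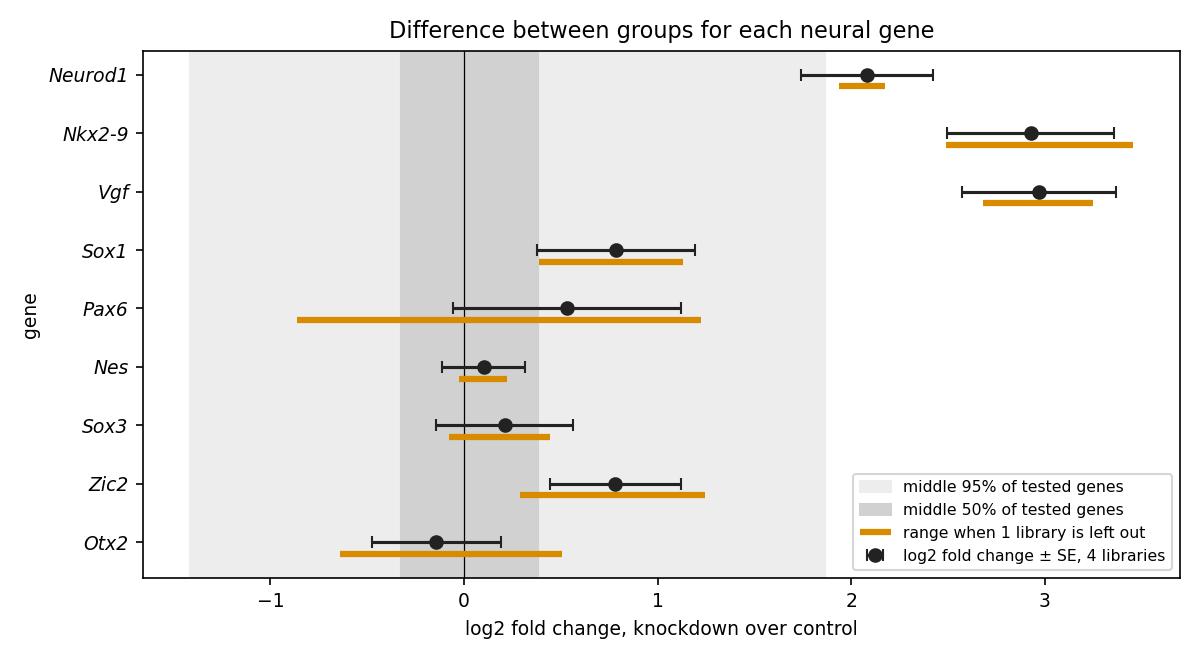
Log2 fold change of knockdown over control for each gene (points, with bars of 1 standard error from 4 libraries), the range when 1 library is left out (orange), and the middle 50% and 95% of all 16209 tested genes (grey). Neurod1, Nkx2-9 and Vgf lie to the right of the grey bands in all these settings, and the ranges of Sox3, Pax6, Nes and Otx2 cross 0.

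As a group, 3 of the 9 genes, Neurod1, Nkx2-9 and Vgf, were among the genes called higher with edgeR's quasi-likelihood test at a Benjamini-Hochberg adjusted p below 0.05 over all genes, and 0 were called lower. Of all 16209 tested genes, 1.43% were called, 0.876% higher and 0.555% lower. The same 3 were at least 2-fold higher, as were 8.70% of all tested genes, and 0 were at least 2-fold lower, as were 5.39%. Both knockdown libraries lay above both controls for 4 of the 9, against 27.3% of tested genes, and below both for 0, against 24.6%. Since the members were proposed from this contrast, these counts are given only beside their background. The median log2 fold change was 0.78 over the 9 genes and 0.01 over all tested genes. Neurod1 was not called without control replicate 2, at a log2 fold change of 1.94, or without knockdown replicate 2, at 2.02. Nkx2-9 and Vgf were called in all 13 alternative settings. The count at 2-fold or more was 5 without control replicate 1 and 6 without knockdown replicate 2, where Sox1, Zic2 and in the latter case Pax6 joined.

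The members also differed in how libraries of a group varied. In 7 of 9, knockdown replicate 1 was the higher knockdown library, where 50.5% of all tested genes were higher in that library. Its excess over knockdown replicate 2 was 1.62-fold for Sox1 (95% exact interval 1.28 to 2.07) and 1.81-fold for Zic2 (1.69 to 1.93), beside the larger gap of Pax6. Neurod1 and Vgf were the exceptions, at 0.92-fold (0.75 to 1.12) and 0.89-fold (0.73 to 1.09), intervals that hold 1, as did those of Nkx2-9 (0.99 to 1.47) and Otx2 (0.97 to 1.21). Control replicate 1 was the higher control in 7 of 9, and in 49.8% of all tested genes, with the widest gap at Otx2, 2.14-fold (1.92 to 2.38).

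To compare levels between genes, counts were also divided by exonic length in GENCODE M21 and scaled to a common library total (TPM). For Pax6, which has many annotated transcripts, the exonic length used, 11694 bases, is the union over all of them and lowers its value. In the controls the order of mean TPM was Zic2 (79.5), Otx2 (32.8), Nes (17.4), Sox3 (11.7), Nkx2-9 (4.32), Neurod1 (3.57), Sox1 (3.57), Pax6 (1.97) and Vgf (1.63). The values of Nkx2-9, Neurod1 and Sox1 overlapped between libraries, as did those of Pax6 and Vgf, so their order is not resolved. In the knockdown libraries the order was Zic2 (151), Nkx2-9 (36.3), Otx2 (32.9), Nes (20.2), Neurod1 (16.4), Sox3 (14.8), Vgf (14.0), Sox1 (6.78) and Pax6 (3.12). Nkx2-9 thus stood level with Otx2, their libraries overlapping at 32.1 and 40.6 against 35.0 and 30.7 TPM. Neurod1 and Vgf lay within the range of Sox3, at 11.8 to 17.8 TPM, and Sox1 (5.02 to 8.55) overlapped Pax6 (1.14 to 5.09), so these orders are not resolved either.

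Genomic surroundings were examined as a feature that the choice of members did not use. The nearest tested gene on each side gave 18 neighbours, and edgeR called 0 of them, with 1 higher and 1 lower at an unadjusted p below 0.05. DESeq2 called 1 and limma-voom 0. The smallest adjusted p was 0.0589, for Rcn1 beside Pax6, with a log2 fold change of -0.96. Ap1s1, 1642 bases from Vgf, had a log2 fold change of -0.06. Plod3, 29744 bases away on the other side, was at 0.05. Itga4 and Pde1a beside Neurod1 were at 0.75 and 1.42 (edgeR adjusted p = 0.656 and 0.311), and Mbip and Prps1l3 beside Nkx2-9 were at -0.18 and -0.18. Exons of Neurod1 overlap those of Cerkl on the same strand and of the noncoding Gm26755 on the other. Cerkl had 9 and 15 control counts and 23 and 22 knockdown counts, fewer than Neurod1 in each library (log2 fold change 1.01, edgeR adjusted p = 0.364). Otx2os1, an antisense gene with exons over those of Otx2, had 1 and 1 control counts and 7 and 1 knockdown counts, against 493 to 1034 for Otx2. Without a stated strand setting, reads of Neurod1 and Gm26755, or of Otx2 and Otx2os1, cannot be told apart. On the same strand, exons of Otx2 overlap those of Gm49154 and exons of Sox1 those of Gm25239.

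By likeness of pattern, measured as the distance between log2 CPM centred on each gene's mean over the 4 libraries, the 3 genes closest to Neurod1 among 16208 were Gm32854, Fam198b and Fam83h, at 0.16, 0.16 and 0.17. Genes chosen for likeness to a member that was itself chosen for its rise had to rise, so their adjusted p, given to describe them, supports nothing further. Fam83h rose from 14.4 and 12.2 CPM to 59.2 and 55.4 CPM (edgeR adjusted p = 0.0099), and Fam198b rose from 8.19 and 8.35 CPM to 32.1 and 33.9 CPM (edgeR adjusted p = 0.0166). Gm32854 was at 0.21 to 1.41 CPM and was not called. Closest to Nkx2-9 were Ahnak2, LOC108168067 and LOC108168003, at 0.25, 0.27 and 0.27. Closest to Vgf were Cacna1e, Fam212b and Ahnak2, at 0.15, 0.27 and 0.28. Cacna1e encodes a voltage-gated calcium channel subunit of neurons and endocrine cells, and rose from 0.42 and 0.31 CPM to 2.93 and 3.47 CPM (edgeR adjusted p = 0.0407), a call that was lost without either control or without knockdown replicate 2. Fam212b rose from 3.59 and 3.27 CPM to 26.3 and 26.5 CPM (edgeR adjusted p = 0.0097). Vgf ranked 11 in likeness to Nkx2-9, and Nkx2-9 ranked 12 in likeness to Vgf.

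Other neural genes were read from lists drawn up by function. No gene of the neuroectoderm and neural progenitor list was called with edgeR: of 32 genes, 22 were tested, with 0 called higher and 0 lower. Other edgeR settings called 7 without a filter on low counts, 3 with the replicate number as a block, 2 without knockdown replicate 2 and 1 without control replicate 1. At an unadjusted p below 0.05, 7 were higher and 1 lower, where 11.0% and 8.58% of all tested genes were. DESeq2 called 4 higher (4.22% of genes tested) and 0 lower (3.35%), and limma-voom called 0 in either direction (0.925% and 0.561%). The genes that DESeq2 called, Sox21, Lhx2, Meis2 and Nr2f2, encode transcription factors and are named after their values were seen. Sox21, a SOXB2 gene of neural progenitors, was at 4.76 and 3.06 CPM in the controls and at 29.9 and 8.03 CPM in the knockdown libraries. Meis2, a homeobox gene, was at 18.6 and 6.64 CPM and at 47.7 and 33.7 CPM. Nr2f2, which encodes the nuclear receptor COUP-TFII, was at 0.11 and 0.31 CPM and at 1.99 and 2.13 CPM, with a log2 fold change of 3.26 and a standard error of 0.66 (edgeR adjusted p = 0.0566). Nr2f2, and Irx3 and Nr2f1 among the 7 higher genes, were at 0.11 to 0.48 CPM in the controls. They passed the filter on low counts only through the knockdown libraries, so their p and calls support nothing further. Irx3 and Nr2f1 are named after their values were seen. Over the whole list, both knockdown libraries lay above both controls for 9 of the 22 genes and below both for 4, where 27.3% and 24.6% of all tested genes did. Among the lower genes, also named after their values were seen, Prom1, which encodes the membrane protein prominin-1, was at a log2 fold change of -0.99, Zfp521 at -1.75 and Rax at -0.90, and edgeR called 0 of these 3. Gbx2, a homeobox gene among the most abundant of the list, had a log2 fold change of 0.28 ± 0.38 (SE).

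The progenitor list as a whole depended on single libraries. Its median log2 fold change was 0.32, but -0.03 without knockdown replicate 1 and -0.08 without control replicate 2. It was 0.61 when knockdown replicate 2 was left out and 0.68 when control replicate 1 was. In 19 of 22 tested genes knockdown replicate 1 was the higher knockdown library, with a median log2 difference of 0.71 between the pair. En1, a midbrain factor gene named after its values were seen, was uneven in both groups, at 10.2 and 0.91 CPM in the knockdown libraries and 3.54 and 0.57 CPM in the controls. Summed over the list, the controls held 452 and 291 CPM and the knockdown libraries 503 and 328 CPM. Each group thus held 1 high and 1 low library, and replicate 1 was the high one in both.

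**Figure D3:**
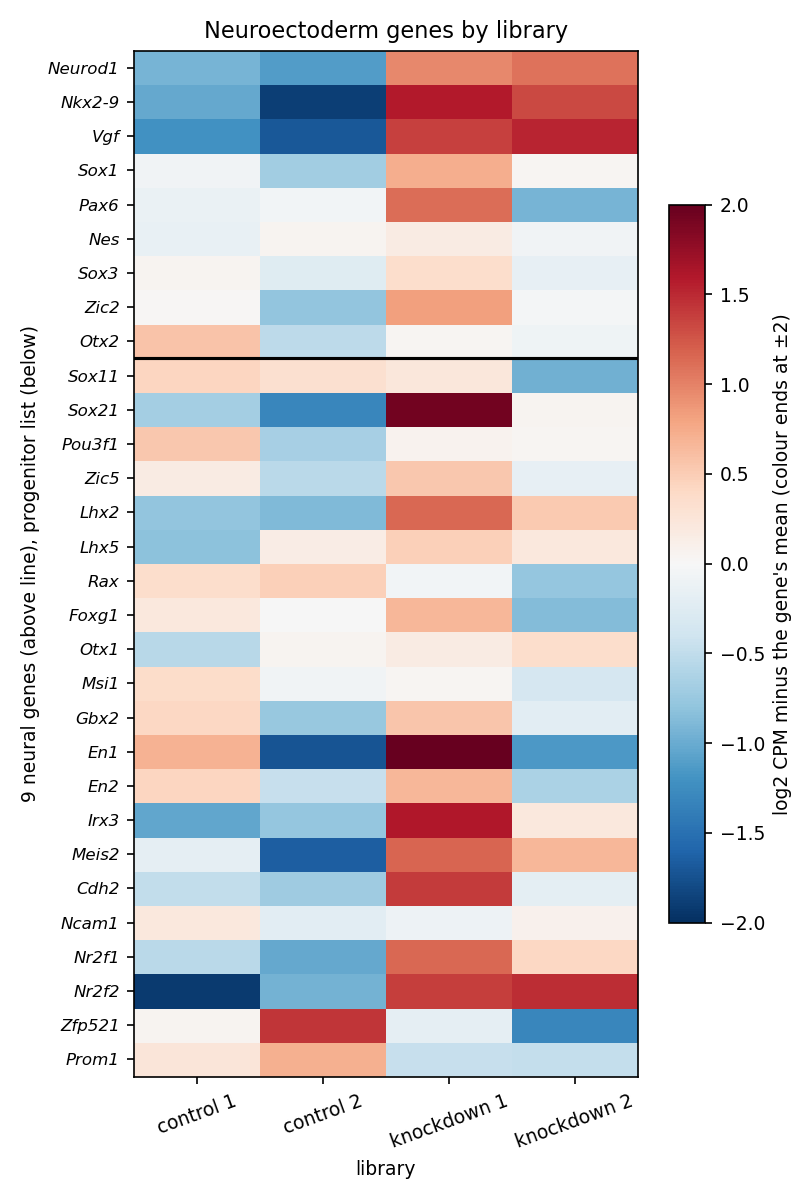
Log2 CPM of each gene minus its mean over the 4 libraries, for the 9 neural genes (above the line) and 21 of the 22 tested genes of the neuroectoderm and neural progenitor list (below it). Red is above and blue below the gene's mean. Neurod1, Nkx2-9 and Vgf are red in both knockdown libraries, as are some list genes, among them Nr2f2, Lhx2 and Meis2. Of the 21 list genes shown, 18 are higher in knockdown 1 than in knockdown 2.

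Relatives and partners of NEUROD1 included many genes with few or no reads. Of 23 proneural and neurogenic genes, 12 were not tested, and 11 had fewer than 10 counts in every library, Neurod6 with 0. In the 11 tested genes edgeR called 0. At an unadjusted p below 0.05, 4 were higher and 1 lower, where 11.0% and 8.58% of all tested genes were. DESeq2 called 2 higher and limma-voom 0. The E protein genes Tcf3, the most abundant of the list, Tcf12 and Tcf4 had log2 fold changes of -0.36, 0.86 and -0.58, with edgeR adjusted p of 0.308, 0.0805 and 0.237. Tcf4 was the gene that was lower at an unadjusted p below 0.05. Among the ID genes, which encode inhibitors of these factors, Id1 was at 0.43 (standard error 0.27), Id2 at 1.03, Id3 at 1.15 (standard error 0.23, edgeR adjusted p = 0.0557) and Id4 at -0.05. Insm1, also higher at an unadjusted p below 0.05, was at 0.42 and 0.42 CPM in the controls and at 1.67 and 1.52 CPM in the knockdown libraries. Its log2 fold change was 1.92 (SE 0.55, edgeR adjusted p = 0.115), and it passed the filter only through the knockdown libraries. Tcf12 and Id3, which DESeq2 called, and Insm1, Tcf4, Id2 and Id4 are named after their values were seen. The list's median was 0.43, and 0.02 without control replicate 2. In the Notch pathway, which holds progenitors back from neurogenesis, edgeR called 0 of 13 tested genes (1 higher and 0 lower at an unadjusted p below 0.05), and so did DESeq2 and limma-voom. The median was -0.03. The transcriptional effector Rbpj was at -0.03 and the receptor Notch1 at 0.77, SE 0.23 (edgeR adjusted p = 0.12), a value called higher without control replicate 1 at 1.07.

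With all 4 libraries and the filter on low counts, edgeR called no gene of mature neurons on the lists examined. For the neuronal cytoskeleton and synapse, 2 genes were higher and 2 lower at an unadjusted p below 0.05 (11.0% and 8.58% of all tested genes). In this list edgeR called 0 of 21 tested genes. It called 2 without control replicate 1, 2 without the filter on low counts and 1 with the replicate number as a block. DESeq2 called 1 lower, the adhesion molecule gene L1cam, named after its values were seen, and limma-voom 0. The median log2 fold change was -0.06, and it was -0.35 without knockdown replicate 1 and 0.19 without knockdown replicate 2. The most abundant, Stmn2 and Nefh, which encode a tubulin-binding protein and the heavy neurofilament, were at -0.47 and 0.52 with standard errors of 0.19 and 0.18. For secretory granules and neuropeptides, the class to which VGF belongs, edgeR, DESeq2 and limma-voom each called 0 of 13 tested genes, with 0 higher and 1 lower at an unadjusted p below 0.05. Nptx2, a secreted synaptic pentraxin, was at 0.06, and the neurotrophin receptor gene Ngfr at 0.30, each with a standard error of 0.32. Scg2, Vip and Cartpt had 0 counts in every library.

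Signals and repressors known to act on these members were likewise not called with all 4 libraries and the filter on low counts. In the Sonic hedgehog pathway and ventral neural tube list, edgeR, DESeq2 and limma-voom called 0 of 15 tested genes, with 2 higher and 1 lower at an unadjusted p below 0.05. At that p, 11.0% of all tested genes were higher and 8.58% lower. Without the filter on low counts, edgeR called 2 genes of this list. Ptch1, the SHH receptor and a standard target of the pathway, was at 100.02 and 59.2 CPM in the controls and at 69.1 and 121 CPM in the knockdown libraries, which overlapped. Gli2, a transcription factor of the pathway, had a log2 fold change of -0.51 (SE 0.18; edgeR adjusted p = 0.164). REST, which represses neuronal genes outside neurons, was at 359 and 221 CPM in the controls and at 208 and 330 CPM in the knockdown libraries. Its complex had 0 of 18 genes called by edgeR, DESeq2 or limma-voom, and 1 by edgeR without the filter on low counts. At an unadjusted p below 0.05, 2 were higher and 3 lower. The complex had a median log2 fold change of -0.13, which was 0.07 without control replicate 1 and -0.30 without control replicate 2. Its most abundant member with Rest, the scaffold gene Sin3a, was at -0.44 (SE 0.17; edgeR adjusted p = 0.196).

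Among activity-dependent CREB targets, a class that includes Vgf in neurons, edgeR called 1 of 12 tested genes, Atf3, higher. This stress-inducible factor gene was at 1.53 and 2.08 CPM in the controls and at 6.96 and 17.4 CPM in the knockdown libraries, a log2 fold change of 2.75 (SE 0.51; edgeR adjusted p = 0.0493). The call was lost with each of the 3 other scalings, with the filter at a mean of 1 CPM, with limma-voom and without any library but knockdown replicate 1, and the adjusted p ran from 5.76e-08 to 0.141 over the alternatives. The list's median was -0.09, and it turned to 0.36 without control replicate 1 and was -0.24 without control replicate 2. Of 12 tested genes of the formative and primed epiblast, edgeR called 1 lower, Fgf15, and 0 higher. At an unadjusted p below 0.05, 4 were lower and 1 higher, where 8.58% and 11.0% of all tested genes were. DESeq2 called 3 lower, Dnmt3a, Tead2 and Fgf15, and 1 higher, Nodal, and limma-voom called 1 lower. Dnmt3a, Tead2 and Nodal, named after their values were seen, had edgeR log2 fold changes of -0.69, -1.21 and 1.00. Fgf15, a growth factor gene that is also expressed in the neural tube, fell from 11.4 and 11.8 CPM to 2.56 and 1.64 CPM (log2 fold change -2.46, standard error 0.38, edgeR adjusted p = 0.0309). It was not called without knockdown replicate 2, at -2.18. The median of that list was -0.50, with -0.04 without control replicate 1 and -0.92 without control replicate 2. Its called genes numbered 5 with control replicate 2 left out, 3 with knockdown replicate 1 left out and 0 with knockdown replicate 2 left out.

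**Figure D4:**
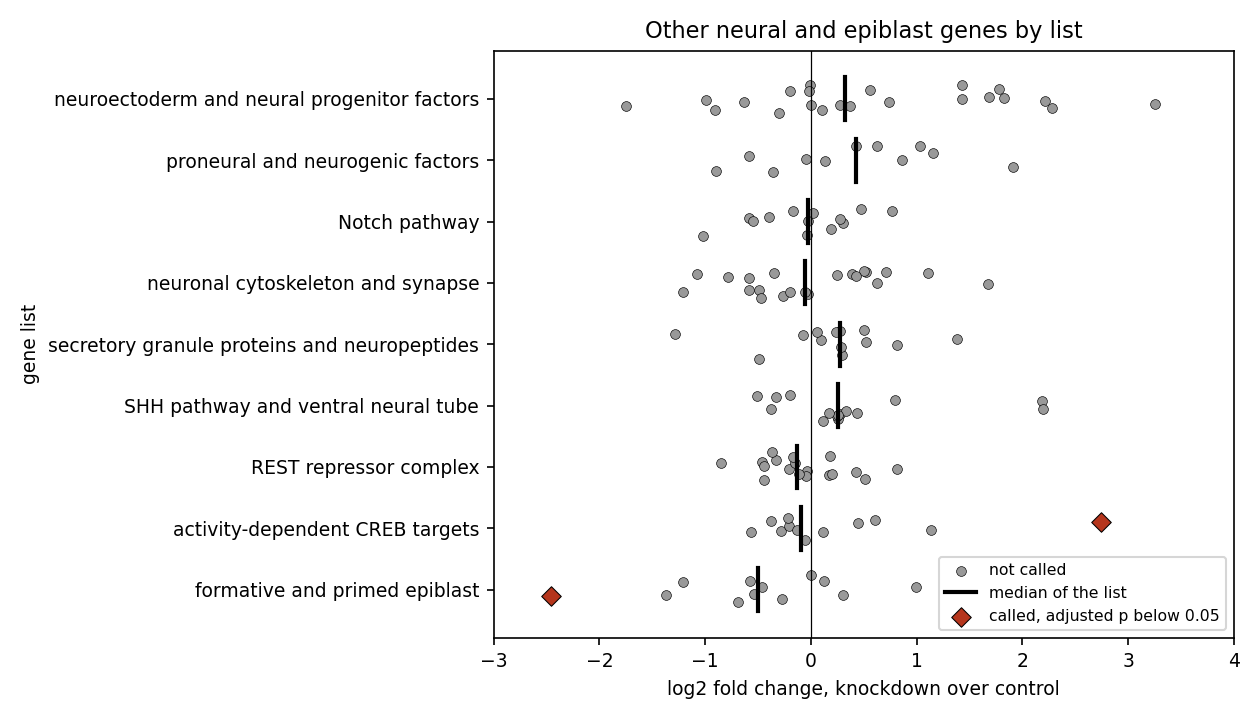
Log2 fold change of every tested gene of 9 lists around the neural members (points, spread vertically for legibility), with the median of each list as a black bar and called genes as red diamonds. Only Atf3 (2.75) and Fgf15 (-2.46) are called, and the medians lie between -0.50 and 0.43.

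Markers of other cell types were low, and some moved with the groups. Summed endoderm markers were at 20.9 to 21.03 CPM in the controls and 31.4 to 39.4 CPM in the knockdown libraries. Mesoderm markers were at 23.9 to 25.9 and at 37.2 to 41.96 CPM. In both lists edgeR called 0 genes, of 7 and 8 tested. At an unadjusted p below 0.05, 3 endoderm genes were higher and 0 lower, and 2 mesoderm genes were higher and 1 lower. Of all tested genes, 11.0% were higher and 8.58% lower at that p. DESeq2 called 1 higher in each, and limma-voom 1 higher in the mesoderm list. Gata4 and Hnf4a, the most abundant endoderm markers, were at log2 fold changes of 1.17 and 0.05, and Kdr and Eomes in mesoderm at 1.88 (edgeR adjusted p = 0.0503) and 0.24. The endoderm median was 1.15, and 0.41 without knockdown replicate 1. Of its tested genes, 4 were at least 2-fold higher and 0 lower, where 8.70% and 5.39% of all tested genes were. The mesoderm median was 0.58, and 0.12 without knockdown replicate 2. Trophectoderm markers spanned 80.0 to 85.3 CPM and 68.7 to 118 CPM, with Krt8 at 10.3 and 38.8 CPM in the knockdown libraries and Tfap2c at a log2 fold change of -0.01. Their median was 0.38, and -0.17 without knockdown replicate 2, and 2 of 8 tested genes were at least 2-fold higher and 0 lower. Gata3, which DESeq2 called and which is named after its values were seen, rose from 0.48 and 0.47 CPM to 3.14 and 2.80 CPM. It passed the filter on low counts only through the knockdown libraries. Neural crest markers spanned 58.1 to 94.9 and 93.6 to 106 CPM, with Foxd3 and Prph at log2 fold changes of 0.45 and -0.01. Fibroblast markers spanned 37.5 to 48.4 and 35.0 to 42.6 CPM, with Lum and Postn at 0 counts and Fbn1 and Pdgfrb at log2 fold changes of 1.14 and -1.54. Glial markers were at 38.8 to 40.8 and 31.2 to 31.6 CPM, and Aqp4 had 0 counts. Of 7 tested glial genes edgeR called 1 lower, the glutamate transporter gene Slc1a3, and 0 higher. Slc1a3 fell from 13.1 and 14.9 CPM to 2.98 and 1.52 CPM (log2 fold change -2.63, edgeR adjusted p = 0.0309). At an unadjusted p below 0.05, 1 glial gene was lower and 1 higher. The higher gene was Pdgfra, at a log2 fold change of 1.13, named after its values were seen.

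Because Neurod1, Pax6 and Nkx2 genes also serve the endocrine pancreas, its markers were read too. They summed to 6.45 to 9.91 CPM in the controls and 7.27 to 7.48 CPM in the knockdown libraries. Ins1, Ins2 and Gcg had 0 counts in every library, and the most abundant, Mafa and Isl1, were at log2 fold changes of -0.26 and 1.09. EdgeR, DESeq2 and limma-voom called 0 of its 3 tested genes, with 0 at an unadjusted p below 0.05, as edgeR did for the trophectoderm, neural crest and fibroblast lists. At that unadjusted p, 1 trophectoderm and 1 neural crest gene were higher and 0 lower, and 1 fibroblast gene was higher and 2 lower. DESeq2 called 1, 0 and 3 genes of these lists, and limma-voom 0. Among the embryonic stem cell markers Tdgf1, a NODAL coreceptor gene, was called lower with a log2 difference of -1.19 (edgeR adjusted p = 0.0438), a call lost with scaling by library size only, at -1.15, and when either knockdown library was left out, at -1.16 and -1.23. Of the 10 markers, 0 were higher and 3 lower at an unadjusted p below 0.05, where 11.0% and 8.58% of all tested genes were. DESeq2 called 2 of the markers lower and limma-voom 1 lower. The part of other cell types in the levels of Neurod1, Nkx2-9 and Vgf was not tested.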

How the data were processed

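The count table deposited by the authors holds unnormalized reads per gene for 4 mRNA libraries of mouse E14 embryonic stem cells. Cutadapt, HISAT2, featureCounts and build mm10 are named, per the submitters' processing notes. For versions, annotation, strand setting and reads with several positions, details were not given in the sources used here. After 92 spike-in rows without counts were left out, 35976 gene rows remained.

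Genes were kept by filterByExpr of edgeR 4.0.16 in R 4.3.3 (minimum count 10), which left 16209. A gene with few reads in 1 group can pass this filter through the other group alone, and its p then gives no support. TMM factors ran from 0.954 to 1.03. Knockdown was tested against control by edgeR's quasi-likelihood method, without covariates and with Benjamini-Hochberg adjustment over all tested genes. Standard errors (SE) were taken as log2 fold change over the square root of F. Counts within each pair differed by more than sampling noise (chi-square per degree of freedom 42.3 and 19.7), so no library was treated as a second copy of another; this does not show that they are independent cultures. TPM used the 26680 rows with a GENCODE M21 length. Exact intervals are conditional binomial ones at 95% and cover counting error only. The procedure was tested on simulated data.

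The 9 members and all 17 gene lists were chosen with earlier results of these data known. Named genes were all members, up to 4 called genes of each list by smallest p or, with none called, its 2 most abundant tested genes, and the 3 genes most like each of Neurod1, Vgf and Nkx2-9; others are marked, and 1 gene that the rule names is not reported here. Alternatives were DESeq2 1.42.0, limma-voom (limma 3.58.1), 3 further scalings, 2 further filters, the replicate number as a block, leaving out each library and thinning to the shallowest.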

Additional observations from a re-analysis of the deposited data

How the results depend on the processing

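The number of genes called, 232, was 1107 with DESeq2, 1717 without a filter on low counts, 656 with the replicate block and between 153 and 587 when 1 library was left out. It was within 1.5 times of 232 with the 3 other scalings, the filter at a mean of 1 CPM, limma-voom and thinning. The causes of these differences were not tested. Over all tested genes, same-numbered libraries did not deviate together (Pearson r = -0.05 across 16209 genes). In the progenitor list they did more often: replicate 1 was higher in 15 of 22 genes in the controls and 19 in the knockdown group. The replicate block lowered the standard error of Zic2 from 0.34 to 0.21 and raised that of Neurod1 from 0.34 to 0.43. The labels tie no numbers to a culture or day, so the replicate block is only an alternative. The members at 2-fold or more, 3 in the main setting and in every other scaling, filter and tool, numbered between 3 and 6 when 1 library was left out. Called genes over all lists, 4, became 21 with DESeq2, 2 with scaling by library size only, 32 without a filter on low counts, 14 with the replicate block and between 3 and 11 when 1 library was left out. Members too low to judge were 0 under either rule. Of 117 log2 fold changes of members under alternatives, 111 moved by less than the spread between replicates. That spread was each gene's own, so a noisy gene could move far within it. Pax6, with a spread of 1.03 in log2 units, went from 0.53 to 1.22 without knockdown replicate 2. Sox3 and Nes changed sign within theirs, to -0.08 and -0.03 without knockdown replicate 1. Zic2 was called higher only without the filter on low counts. With a library left out, the spread came from the intact group alone. The remaining lone sample is assumed to share it. With 2 libraries a group, the spread between libraries limits the precision for all members, and counting error adds to it for Neurod1, Nkx2-9 and Vgf in the controls.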
